A study of Mus musculus with 2 samples.

Results

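Mir208a, Mir208b and Mir499 are the microRNA (miRNA) genes that sit inside myosin heavy chain genes, and they were taken as a set by that position, with earlier results of these data known. They are 3 of the 1973 miRNA genes counted in hearts of B6NCrl mouse embryos at embryonic day 14.5. The study holds 1 group of 2 small RNA libraries, with the heart sample of biological replicate 1 taken on 15 July 2014 and that of replicate 2 on 17 July, and no treated, mutant or control hearts. The labels name no genetic change, treatment or sorting of cells for either library. The labels call each sample a single heart and also give its sex as male and female pooled, so the number of embryos behind a library is not settled. A read can therefore come from any cell type of the organ.

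miRNAs are cut from hairpin precursors and guide a silencing complex to messenger RNAs that pair with the miRNA seed, the stretch near its 5′ end. The myosin-hosted miRNAs are cut from introns of the genes for the motor proteins of the muscle filament: Myh6 encodes the alpha and Myh7 the beta heavy chain of cardiac myosin, and Myh7b encodes a related slow-type heavy chain. In the mouse, beta myosin prevails in the ventricles of the fetus and alpha myosin in those of the adult. Mouse knockout studies tied miR-208a to the stress response of the adult heart and to the expression of Myh7b, with its miR-499. Messenger RNAs were not measured here, so neither the hosts nor any target can be read from these libraries.

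The mature sequences show what the members have in common. Each is printed 5′ to 3′ with its seed (bases 2 to 8) in capitals, as RefSeq gives it on GRCm38.p6, the assembly also called mm10, for the arm commonly taken as the main product of the hairpin:
miR-208a-3p: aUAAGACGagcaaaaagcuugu
miR-208b-3p: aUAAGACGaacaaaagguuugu
miR-499-5p: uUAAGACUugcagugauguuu

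The miR-208 pair had the same seed and differed at 3 of 22 bases, all downstream of it: counted from the 5′ end, with the miR-208a base first, the changes to miR-208b were G10A, A16G and C18U. miR-499-5p carried the same bases 2 to 7, and its only change within the seed from miR-208b was G8U. Compared base by base without gaps, miR-499-5p had 10 of 21 compared bases identical to those of miR-208b and 12 of 21 identical to those of miR-208a. Of the 1738 mature miRNAs in the RefSeq table, 3 held these bases 2 to 7, which are the main arms of the 3 members, and 2 held the full miR-208 seed. Sequences missing from that table were not searched.

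The hairpins are printed with the main arm in capitals, because the arm lies on opposite sides of the loop in the miR-208 genes and in Mir499:
Mir208a: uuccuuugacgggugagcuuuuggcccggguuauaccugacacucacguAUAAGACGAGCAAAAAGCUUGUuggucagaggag
Mir208b: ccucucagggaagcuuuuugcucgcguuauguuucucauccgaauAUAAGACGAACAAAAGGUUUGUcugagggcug
Mir499: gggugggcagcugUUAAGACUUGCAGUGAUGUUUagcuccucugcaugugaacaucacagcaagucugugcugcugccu

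The main arm ran from base 50 to 71 of the 83-base hairpin in Mir208a, from base 46 to 67 of 77 in Mir208b and from base 14 to 34 of 79 in Mir499. In minimum free energy folds, 18 bases of each main arm were paired, and the predicted energies were -37.6 kcal/mol for Mir208a, -32.2 for Mir208b and -42.5 for Mir499, against a median of -32.0 over 1005 RefSeq hairpins. The files count reads per gene, so the 2 arms of a hairpin could not be told apart. The longest stretch that a member's hairpin shared with any of 2201 other annotated miRNA transcripts, on either strand, was 14 bases for Mir208a and for Mir208b, each with the other, and 13 bases for Mir499. Reads that mapped to several places were counted apart from genes, and many heart miRNAs have near-identical copies. No member shared a stretch of 20 bases with another annotated miRNA on either strand. For other genes, that search also finds a gene opposite at the same place, where reads need not map to several places. The rest of the genome was not searched.

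Each member lay inside an intron of its host, on the host's strand, with no other annotated gene over it. Mir208a (chr14:54949060-54949142, minus strand) lay in intron 29 of 38 of a principal Myh6 transcript, a 542-base intron. Mir208b (chr14:54975700-54975776, minus strand) lay in intron 31 of 40 of a principal Myh7 transcript, a 461-base intron. Mir499 (chr2:155622880-155622958, plus strand) lay in intron 19 of 41 of the principal Myh7b transcript, a 481-base intron. In both cardiac myosin genes 9 introns followed the one with the miRNA, and its flanking exons were 197 bases upstream and 184 bases downstream in Myh6 and in Myh7 alike. In Myh7b 22 introns followed, and the flanking exons were 77 and 88 bases. Myh6 and Myh7 are neighbours separated by 3756 bases, and 26557 bases lay between the Mir208a and Mir208b hairpins. Of the annotated transcripts, 2 of 7 of Myh6, 2 of 8 of Myh7 and 1 of 3 of Myh7b spanned the miRNA, in each case with the miRNA in an intron. The others ended before it or began after it.

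**Figure D1:**
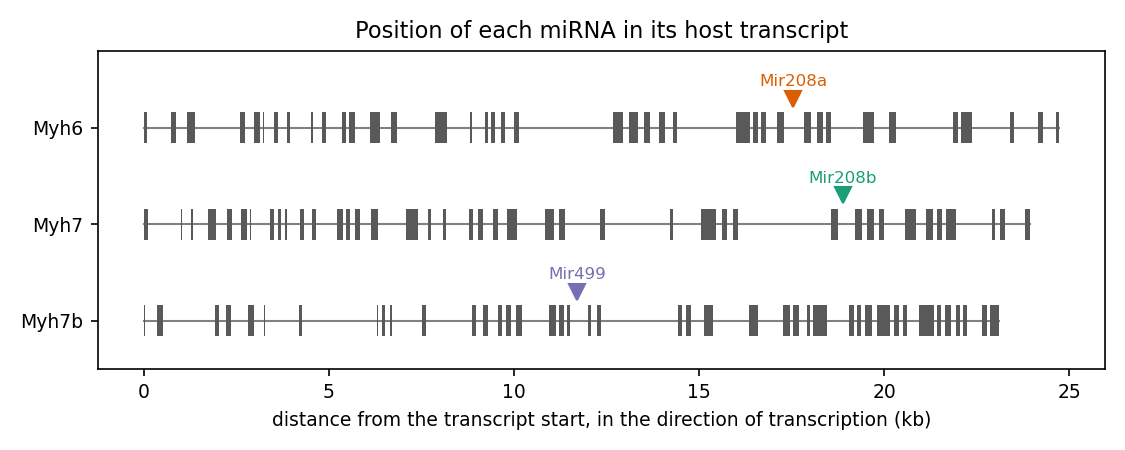
Exons (grey blocks) and introns (lines) of principal transcripts of Myh6, Myh7 and Myh7b by distance from the transcript start in kb, with a triangle at each miRNA. Mir208a and Mir208b sit at 71.0% and 78.9% of the transcript span and Mir499 at 50.7%.

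Of 8150499 reads in replicate 1, 4327424 fell on a miRNA gene on its own strand, and of 7269505 in replicate 2, 3839984 did. Levels are CPM, counts scaled to the total of such reads in the library. Detection required a minimum of 10 counts in replicate 1 and in replicate 2. All 3 members were detected, as were 17.1% of all genes in the tables, and all 3 exceeded 1000 CPM in each library, as did 3.85% of all genes. With 1 group and 3 genes that are not replicates of each other, no test between conditions was possible. Values are given per library with counting intervals, and as mean ± SD over the 2 libraries, whose spread is that between these samples and may be technical.

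Mir208b, hosted by the beta myosin gene, had by far the most reads of the set. It had 286968 counts in replicate 1 and 256596 in replicate 2. On the CPM scale these were 66314 (95% exact Poisson interval 66071 to 66557) and 66822 (66564 to 67081), a mean of 66568 ± 359 (SD, n = 2). The libraries were nearly level, with a coefficient of variation of 0.540%. The gene ranked 4 in replicate 1 and 5 in replicate 2, and its level was 53.0% and 58.5% of that of Mir335, the top gene in both libraries (119648 ± 7637 CPM).

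Mir208a, hosted by the alpha myosin gene, was intermediate and was the least even of the 3 between libraries. It had 28309 counts in replicate 1 and 36028 in replicate 2, although replicate 2 was the shallower library. These were 6542 CPM (interval 6466 to 6618) and 9382 CPM (9286 to 9480), a mean of 7962 ± 2009 (SD, n = 2) and a coefficient of variation of 25.2%. It ranked 23 and 22.

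Mir499 was the lowest of the set. It had 12534 and 12092 counts, or 2896 CPM (interval 2846 to 2948) in replicate 1 and 3149 CPM (3093 to 3206) in replicate 2, a mean of 3023 ± 179 (SD, n = 2). It ranked 46 and 40. The order Mir208b, Mir208a, Mir499 was the same in both libraries, and the ranges of no 2 members overlapped. Even Mir499 stood 4178 times above a level of 3 counts in replicate 1 and 4031 times in replicate 2, so counting error was small for every member. These intervals cover counting error only, since the sources used here name no molecular identifiers that would tell PCR copies from separate molecules.

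**Figure D2:**
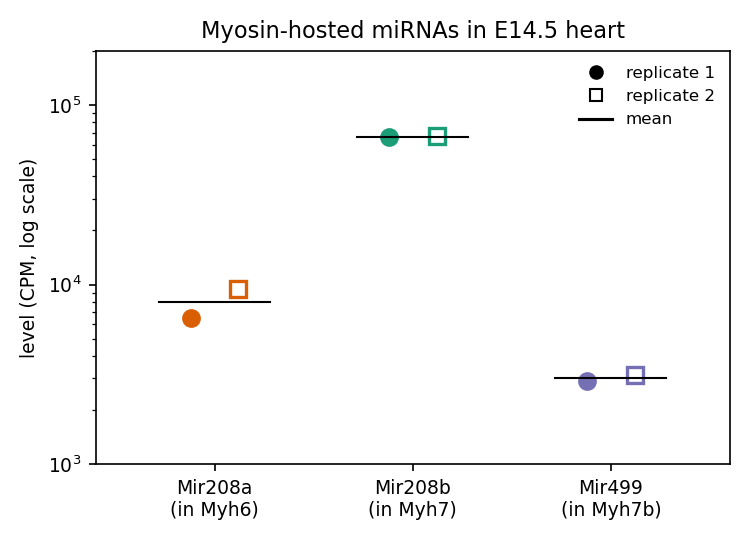
Level in CPM (log scale) of each member in replicate 1 (filled circles) and replicate 2 (open squares), with the mean as a line. Mir208b sits at 66314 and 66822 CPM, Mir208a at 6542 and 9382 CPM, and Mir499 at 2896 and 3149 CPM.

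Within a library the members can be compared as ratios of reads, which do not depend on the total. No calibration of reads to molecules was used here, so ratios of molecules may differ. Mir208b stood 10.1 times above Mir208a in replicate 1 (95% exact binomial interval 10.01 to 10.26) and 7.12 times in replicate 2 (7.04 to 7.20). The intervals of the 2 libraries did not overlap, and the mean was 8.63 ± 2.13 (SD, n = 2). Mir208b stood 22.9 (22.5 to 23.3) and 21.2 (20.8 to 21.6) times above Mir499. Mir208a stood 2.26 (2.21 to 2.31) and 2.98 (2.92 to 3.04) times above Mir499. The smallest of these ratios in either library was thus 2.26, so each gap in the order was wider than the 1.43-fold gap that the most variable member showed between the libraries. The mature products are 22, 22 and 21 bases long, so length hardly bears on these ratios: per base of mature RNA, Mir208b stood 21.1 times above Mir499 and Mir208a 2.50 times, as means over the libraries.

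The same data can be read as the makeup of the set. Mir208b gave 87.5% of the reads of the 3 genes in replicate 1 (exact Clopper-Pearson interval 87.4% to 87.7%) and 84.2% in replicate 2 (84.1% to 84.3%). Mir208a gave 8.64% (8.54% to 8.73%) and 11.8% (11.7% to 11.9%), and Mir499 gave 3.82% (3.76% to 3.89%) and 3.97% (3.90% to 4.04%). Of the miR-208 reads alone, Mir208a made up 8.98% and 12.3%. The part of Mir208a was therefore larger in replicate 2 and that of Mir208b smaller, while that of Mir499 was 3.90% ± 0.102 (SD, n = 2). The 3 genes together held 7.58% and 7.94% of all assigned reads, or 75752 and 79353 CPM, most of it Mir208b.

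**Figure D3:**
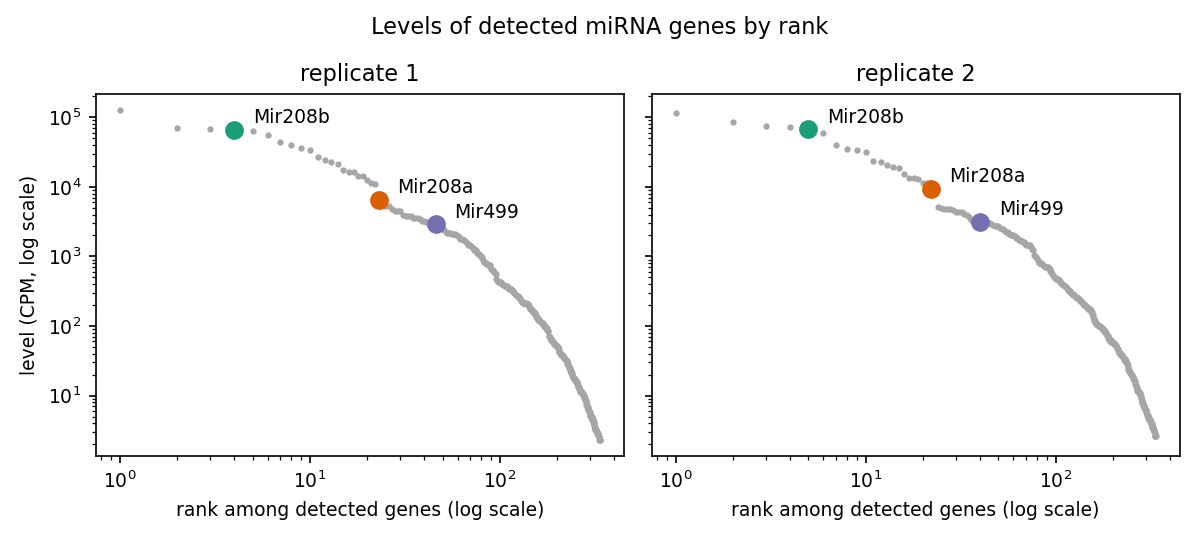
Level in CPM against rank, both on log scales, for the 337 detected miRNA genes (grey) in each library, with the 3 members coloured. Mir208b lies at rank 4 and 5, Mir208a at 23 and 22 and Mir499 at 46 and 40 in replicates 1 and 2.

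No read was counted on the strand opposite to any member, in either library. The files give reads of each strand separately, and over all miRNA genes 95.3% of gene reads in replicate 1 and 95.4% in replicate 2 lay on the counted strand. A count of 0 allows a level of up to 0.693 CPM in the first library and 0.781 CPM in the other. The unstranded and the strand-specific counts of all 3 genes were thus identical. No gene annotated on the opposite strand lay over any member.

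Many miRNA genes lie inside protein-coding genes, and the members ranked high among them. Of 854 miRNA genes of the tables that lie inside a protein-coding gene on its strand, 157 were detected (18.4%), as were 180 of the 1040 that do not (17.3%). Among those 854 genes Mir208b ranked 3 in both libraries, Mir208a ranked 12 in both, and Mir499 ranked 25 in replicate 1 and 22 in replicate 2.

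Between the libraries, 1 of the 3 members was more than 1.2-fold apart, as were 40.1% of the 337 detected genes, so the members were not set apart by this count. The member was Mir208a, higher in replicate 2 by 1.43-fold (counting interval 1.41 to 1.46), or 0.52 on the log2(CPM + 1) scale, and by 0.41 to 0.52 over the other scalings and pseudocounts tried. Mir499 was 1.09-fold (1.06 to 1.11) higher in replicate 2, or 0.12 on that scale, but 0.0070 with size factors. Mir208b differed by 0.011 on that scale, and its direction flipped with the scaling, to -0.054 with TMM factors and -0.10 with size factors. The median absolute log2 ratio was 0.22 over the 337 detected genes and 0.15 over the 78 genes that averaged 1000 CPM or more. Mir208a exceeded both medians, and Mir208b and Mir499 lay below both. Of those 78 genes, 4 had a wider gap than Mir208a, against 6 with TMM factors and 12 with size factors, and the 4 were named after their values were seen. They were Mir431 (2273 and 3315 CPM), Mir27b (1242 and 1840), Mir10a (982 and 1503) and Mirlet7f-2 (1372 and 917). Mir27b and Mirlet7f-2 share a stretch of 20 bases with another annotated miRNA on either strand. Their levels are uncertain unless that miRNA lies opposite at the same place, which was not checked. Of the 22 genes with a higher mean than Mir208a, 0 had a wider gap, against 1 with TMM factors and 2 with size factors. These are ratios of 1 library to 1 other library of the same group, for which no replicate check exists.

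**Figure D4:**
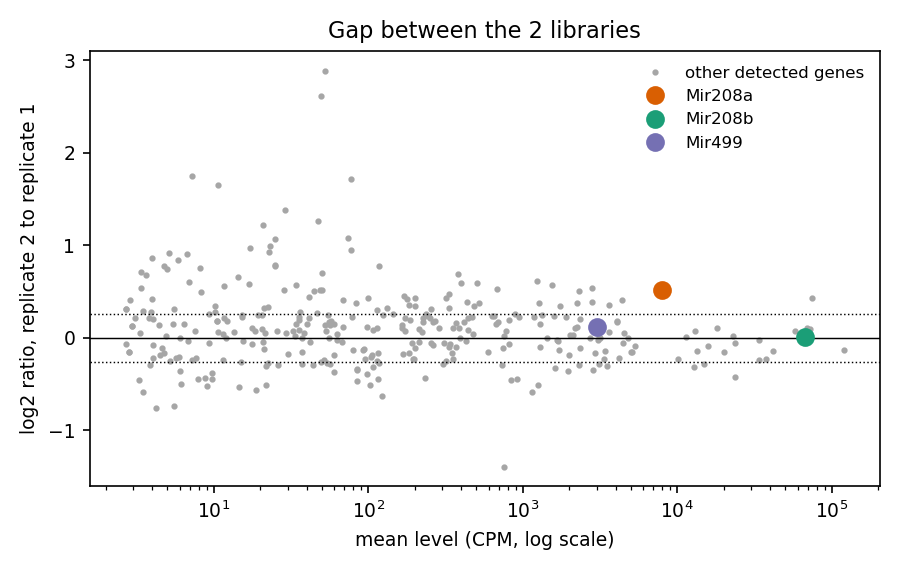
Log2 ratio of replicate 2 to replicate 1, on CPM + 1, against mean level (CPM, log scale) for the 337 detected genes, with the members coloured and dotted lines at a 1.2-fold gap. Mir208a, at 0.52, lies above the upper dotted line, and Mir499 (0.12) and Mir208b (0.011) lie between the lines.

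Markers of other cells also differed between the libraries, and their part in the Mir208a gap was not tested. The smooth muscle list, both of whose genes were detected, summed to 64494 CPM in replicate 1 and 87098 in replicate 2, with Mir143 as its leading gene. The epithelial list, with all 10 genes detected and Mir429 leading, summed to 753 and 1339 CPM, and the neuronal list, with 3 of 8 measured genes detected, to 157 and 209 CPM. In the neuronal list Mir137 stood at 13.2 and 85.7 CPM, while the leading gene Mir128-1 (121 and 108 CPM) and Mir128-2 (22.4 and 14.8 CPM) went the other way. Its other 5 measured genes, the copies of miR-124 and of miR-9 that have an entry, were at 0 counts in both libraries. The red blood cell list, both genes detected and Mir451a leading, summed to 1184 and 489 CPM. The white blood cell list, 3 of 3 measured genes detected and Mir223 leading among them, summed to 493 and 405 CPM. Within it Mir223 (345 and 290 CPM) and Mir155 (134 and 98.4 CPM) were lower in replicate 2, while Mir150 (13.9 and 16.4 CPM) was higher. Mir142, also on the white blood cell list, has no entry, so the sum of that list leaves it out. On the strand opposite to Mir142b, 3528 and 2387 reads were counted, against 1495 and 1115 for Mir223, and they are in no list. The endothelial gene Mir126a stood at 69932 and 75015 CPM, and the liver miRNA Mir122 at 38.4 and 44.5 CPM. The fibroblast list, all 5 genes detected and Mir21a leading, summed to 27979 and 27246 CPM. Its genes did not move together: Mir21a (24189 and 23309 CPM) and Mir199b (209 and 178 CPM) were lower in replicate 2. Mir214 (3537 and 3704 CPM), Mir199a-2 (42.1 and 51.0 CPM) and Mir199a-1 (2.31 and 3.39 CPM) were higher there. Of the lists named here, some genes share 20 bases with another annotated miRNA on either strand. They were Mir451a, Mir126a, both miR-128 genes, the miR-9 and miR-124 copies, and the 3 miR-199 genes. Their levels or zeros are uncertain unless the other miRNA lies opposite at the same place, which was not checked. As ratios of replicate 2 to replicate 1, the sums stood at 1.05 for the 3 myosin-hosted genes, a sum made mostly of Mir208b, at 1.35 for smooth muscle, 1.07 for endothelium, 0.974 for fibroblasts, 0.413 for red blood cells, 0.822 for white blood cells, 1.78 for epithelium, 1.33 for neurons and 1.16 for liver. In whole tissue, fewer cells of a type and less RNA per cell cannot be told apart.

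Muscle miRNAs outside the myosin genes were read at far lower levels. Of 9 such genes listed, 7 have an entry, and 4 of these 7 were detected. Mir486, in the muscle and red cell gene Ank1, had 256 and 187 counts (53.9 ± 7.40 CPM; SD, n = 2), and Mir206, best known from skeletal muscle, had 68 and 131 (24.9 ± 13.0 CPM). Mir1a-1 had 13 and 10 counts, Mir133a-1 12 and 12, Mir133b 9 and 15, Mir1b 11 and 4 and Mir133a-2 2 and 5. Reads of the 3 myosin-hosted genes outnumbered those of all 7 by 884-fold in replicate 1 and 837-fold in replicate 2. That ratio applies only to reads placed on 1 gene and on its own strand. It leaves out 45 reads in replicate 1 and 51 in replicate 2 on the strand opposite to Mir1b. Mir1a-2, a listed gene without an entry, is annotated there. Of the 7, all but Mir206 share a stretch of 20 bases with another annotated miRNA on either strand. Apart from Mir1a-2 opposite to Mir1b, whether that miRNA is a copy elsewhere or lies opposite at the same place was not checked. Of all reads, 30.6% and 30.1% mapped to several places and were counted on no gene. No member of the myosin-hosted set shares such a stretch, so the set and the miR-1 and miR-133 genes were not counted under like conditions.

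**Figure D5:**
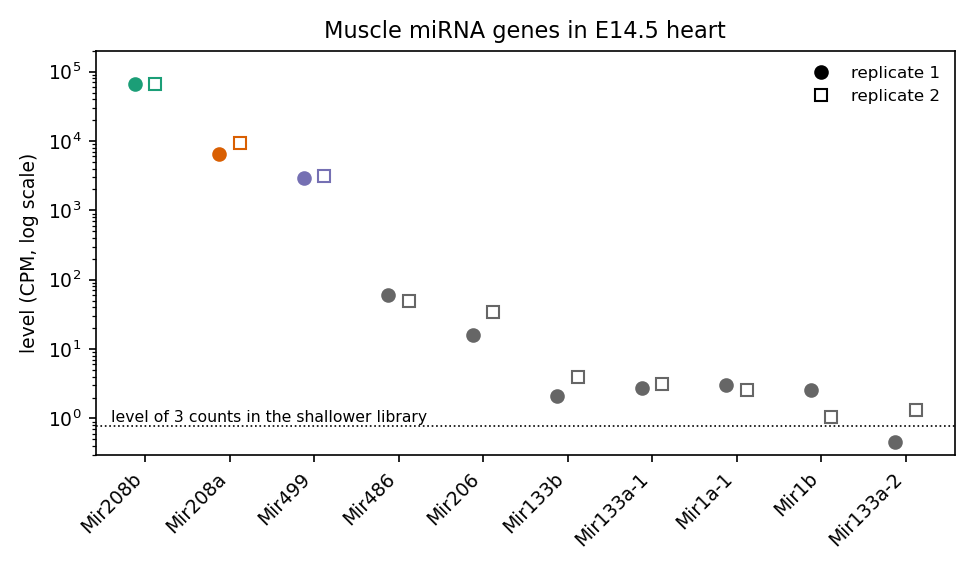
Level in CPM (log scale) of the 3 myosin-hosted genes (coloured) and the 7 other measured muscle miRNA genes (grey) in replicate 1 (circles) and replicate 2 (squares), with a dotted line at 3 counts in the shallower library. The members lie between 2896 and 66822 CPM, and the others at or below 59.2 CPM.

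The genes most like each member in both libraries were found by Euclidean distance over the 2 libraries in log2(CPM + 1), a measure that over so few libraries mostly reflects level. Mir208b lay nearest to Mir322 (distance 0.11; 66947 and 72001 CPM), Mir126a (0.18; 69932 and 75015 CPM) and Mir99a (0.30; 56147 and 59214 CPM). Mir499 lay nearest to Mir503 (0.05; 2904 and 3047 CPM), Mir107 (0.10; 3102 and 3131 CPM) and Mir324 (0.10; 3072 and 3033 CPM). Mir208a had no neighbour as close: the nearest were Mir30d (0.73; 10833 and 9236 CPM), Mir652 (0.85; 11372 and 11478 CPM) and Mir20a (0.91; 5461 and 5122 CPM), and the first and last of these were lower in replicate 2, where Mir208a was higher. Mir126a and Mir107 share a stretch of 20 bases with another annotated miRNA on either strand. Their levels are uncertain unless that miRNA lies opposite at the same place, which was not checked.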

How the data were processed

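Small RNA was profiled in 2 heart libraries of 1 group. Each library has 1 deposited table of whole-number read counts per gene with 3 count columns (both strands, each strand alone), and the authors used build mm10 and annotation M4, per the file headers and descriptions. Neither aligner nor counting program is named (not given in the sources used here). The RNA size range lay under 30 per the labels, with no unit. Counts came from the strand column holding more gene reads, and 4 lines that name no gene (46.9% of reads in replicate 1 and 47.2% in replicate 2) stayed out of totals. Symbols and positions came from GENCODE M21 on the same assembly, which named 1894 of 1973 identifiers; the other 79 had at most 1 count.

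Counts were scaled to CPM, and log2 ratios used a pseudocount of 1 CPM. Intervals are at 95% and cover counting error, and a floor is 3 counts. Sequences are RefSeq's, on GRCm38.p6, and all 3 members matched. Hairpins were folded with RNAfold 2.7.2. TMM factors came from edgeR 4.0.16 and size factors from DESeq2 1.42.0 (R 4.3.3). The remaining steps ran in Python 3.11.15 with scipy 1.17.1, pandas 2.3.3 and numpy 2.4.6. Of these, the log2 ratios between libraries and the intervals of ratios were checked on simulated counts. Genes named are the members, other listed muscle miRNAs, miRNAs with the members' bases 2 to 7, the 3 nearest detected genes per member, the top gene and the top gene of each marker list. Mir431, Mir27b, Mir10a, Mirlet7f-2, Mir137, Mir128-2, Mir142, Mir142b, Mir214, Mir155 and Mir150 fall outside this rule, as do the copies of miR-124, miR-9 and miR-199. All of these were named after their values were seen. Members and lists were chosen with earlier results of these data known.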

Additional observations from a re-analysis of the deposited data

Results flagged for a closer look

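Reads outside the counted strand were present for 2 of the other muscle genes, above the 3 counts that a count of 0 allows. On the strand opposite to Mir1b, where Mir1a-2 is annotated, 45 reads were counted in replicate 1 and 51 in replicate 2. On the strand opposite to Mir486, 17 and 16 reads were counted.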

How the results depend on the processing

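Of 90 values recomputed under alternatives, 71 stayed within the spread between replicates, the counting interval or, for numbers of genes, a 1.5-fold range. Some of these had to stay. A value from a single replicate always lies within the SD around the mean of both. With the unstranded column, ratios and shares within the set could not change, since no read lay opposite to a member. The number 71 therefore does not measure stability. With the unstranded column Mir208b was at 63474 CPM and the set held 7.39% of gene reads. Without Mir335 in the total, Mir208b was at 75616 and Mir499 at 3433 CPM. Scaled to all reads of the table, Mir208a was at 4215, Mir208b at 35253 and Mir499 at 1601, and the set held 4.11%. These shifts follow from the larger or smaller total. The log2 ratio of replicate 2 to replicate 1 for Mir208a, Mir208b and Mir499 was 0.45, -0.054 and 0.055 with TMM factors, and 0.41, -0.10 and 0.0070 with size factors, which shift every gene by -0.065 and -0.11. Without Mir335 in the total it was -0.0067 for Mir208b. Genes of at least 1000 CPM with a wider gap than Mir208a numbered 4, 6 with TMM factors and 12 with size factors, and among genes with a higher mean 0, 1 and 2, scalings applied to these numbers after seeing the data. Leaving out each replicate gave 6542 to 9382 CPM for Mir208a, 66314 to 66822 for Mir208b and 2896 to 3149 for Mir499. It gave ratios of 7.12 to 10.1 for Mir208b to Mir208a, 21.2 to 22.9 for Mir208b to Mir499 and 2.26 to 2.98 for Mir208a to Mir499. Counts per base, an alternative chosen after seeing the data, kept the order. The members were detected under every count minimum tried (1, 3, 50 and 100), while all detected genes numbered 542 at a minimum of 1 count. No paired analysis was possible because there is 1 group. Depth did not limit the members, whose lowest count was 12092.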
